A study of Rattus norvegicus with 8 samples.

Results

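Chac1, a glutathione-degrading enzyme, and 9 further genes of glutathione metabolism were followed in rat oligodendrocyte precursor cells, the proliferating progenitors from which myelinating cells of the brain form. The 10 genes (Chac1, Chac2, Gclc, Gclm, Gss, Gsr, Gpx1, Gpx4, Ggct and Cth) were taken by symbol from a table of 32662 genes, and each matched 1 row. The group was chosen by the FPKM difference of Chac1 between these same libraries, already known to be among the largest rises, so for Chac1 the levels are given as a description, without a test. The 9 others were chosen for their place in the pathway, with earlier results of these data known.

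Primary cells came from the cerebral cortex of Sprague Dawley rats aged 1 to 2 days, with no genetic change recorded. Mixed glia were grown in 20% serum, and the cells that did not adhere were kept for 4 to 5 days in medium with PDGF and FGF at 10 ng/ml each, B27 at 2%, 2 mM glutamine and antibiotic at 1%. Of the 8 libraries 4 were controls, and 4 came from cells shifted for 6 h to oxygen glucose deprivation (OGD), the loss of both supplies that models ischaemia in a dish. Values are FPKM, fragments scaled by gene length and by the total of the library, from whole cultures in which fewer cells of a type and less RNA per cell cannot be told apart.

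Glutathione, built from glutamate, cysteine and glycine, is the main soluble thiol of the cell. Glutamate-cysteine ligase (catalytic subunit Gclc, modifier subunit Gclm) makes the first bond and glutathione synthetase (Gss) adds glycine. Glutathione peroxidases spend glutathione on peroxides, and glutathione reductase (Gsr) restores it with NADPH. Chac1 and Chac2 split it inside the cell, and Chac1 is a known target of the stress factors ATF4 and CHOP. Oligodendrocyte precursors are known for sensitivity to cystine shortage and oxidative injury.

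Fragment totals are not in the table, and relative depth, read from the step sizes of low FPKM values with control 1 set to 1, was 0.816 (OGD 2) to 1.18 (OGD 4). The precursor label held in the markers: 13 matched precursor markers summed to 3084 to 3245 FPKM in control and 2046 to 2305 FPKM in OGD libraries, and 8 of 13 fell while 1 rose. Marker calls are from the limma test described further on, by which 22.7% of all tested genes rose and 26.8% fell. Of 12 tested microglial markers 11 fell, and the 13 matched ones summed to 204.8 to 335.8 FPKM in control and 66.7 to 122.5 FPKM in OGD, with none at 0 throughout. Astrocyte markers summed to 173.6 to 187.0 and 167.9 to 177.1 FPKM (0 of 6 tested rose, 2 fell), and neuronal markers to 140.8 to 148.9 and 152.9 to 165.7 FPKM (2 of 10 rose, 3 fell), with Slc17a7 at 0. The 11 vascular and stromal markers summed to at most 0.501 FPKM, with Cldn5, Dcn and Rgs5 at 0 throughout.

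Chac1 (ENSRNOG00000014387) was low in control cells and among the more abundant glutathione transcripts after OGD. It stood at 2.04, 2.86, 1.74 and 1.53 FPKM in control libraries 1 to 4 and at 42.3, 32.5, 39.5 and 44.1 FPKM in OGD libraries 1 to 4. The lowest OGD library was far above the highest control library, so the groups did not overlap. The means were 2.04 ± 0.582 and 39.6 ± 5.11 FPKM (SD, n = 4 each), a ratio of 19.4, and the difference was 3.75 on the log2(FPKM + 1) scale, the 6th largest rise of 11149 tested genes. Read through the steps of low values, the control libraries held 20, 29, 19 and 16 Chac1 fragments, the smallest whole numbers that fit, each within 0.011 of a whole. On the same step OGD libraries held about 385, 260, 443 and 510, too many for the step to be checked. A common multiple of these numbers would fit as well. Between control libraries Chac1 varied by 28.5% (coefficient of variation), against a median of 9.71% over tested genes, and between OGD libraries by 12.9%, against 11.4%.

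Since ATF4 acts through the CEBP-ATF response element, the promoter of Chac1 is shown with its match to the core of that element, TGATGNAA, and with TGACG, the opening letters of the cyclic AMP response element core TGACGTCA. The stretch is the 250 bases before the start of the gene in RefSeq (build GRCr8, chr3:126795881-126796130, plus strand), written 5′ to 3′ with both matches in capitals.
Chac1: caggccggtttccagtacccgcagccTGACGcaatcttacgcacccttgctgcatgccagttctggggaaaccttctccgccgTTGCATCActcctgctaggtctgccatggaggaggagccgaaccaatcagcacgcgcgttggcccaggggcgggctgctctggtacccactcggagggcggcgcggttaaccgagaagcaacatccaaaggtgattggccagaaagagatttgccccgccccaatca

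TTGCATCA, the element read on the opposite strand, lay 167 to 160 bases before the start, and TGACG 224 to 220 bases before it. Of 33469 RefSeq windows of 300 bases (250 before and 50 from each start) 3.98% held TGATGNAA on either strand, and 21.2% held TGACG. Windows were found for 9 of the 10 genes. Chac1 alone among them held TGATGNAA, while TGACG was in the windows of Chac1 and Gpx4. TGACGTCA, which contains TGACG, was in none of the 9 and in 1.83% of all windows. The antioxidant response element core TGACNNNGC, which can overlap TGACG, was in 1 of 9 (Gclm) and in 12.1% of all windows. The hypoxia element core, ACGTG or GCGTG, was in 8 of 9, Chac1 among them and Gclm the exception, and in 41.6% of all windows. In the Chac1 stretch it lay 117 to 113 bases before the start, read on the opposite strand as CACGC and left in lower case. Among 122 genes of the pathway lists described further on that had a window, 4 held TGATGNAA: Slc1a4, Trib3, Nupr1 and Gadl1. Of all windows 3.98% held it, as given above. Slc1a4 and Trib3, both of which rose, are printed around their match, in capitals, from the same build (minus strand, chr14:98761774-98761812 and chr3:161275534-161275570). Trib3 passed the filter of 1 FPKM in 4 libraries only through OGD libraries, so a rise was the only call open to it. Nupr1 was listed at 0 in all 8 libraries and Gadl1 had no row by symbol. A match is a string of letters and no evidence of binding.
Slc1a4: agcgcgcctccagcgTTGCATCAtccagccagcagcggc
Trib3: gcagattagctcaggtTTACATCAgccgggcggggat

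**Figure D1:**
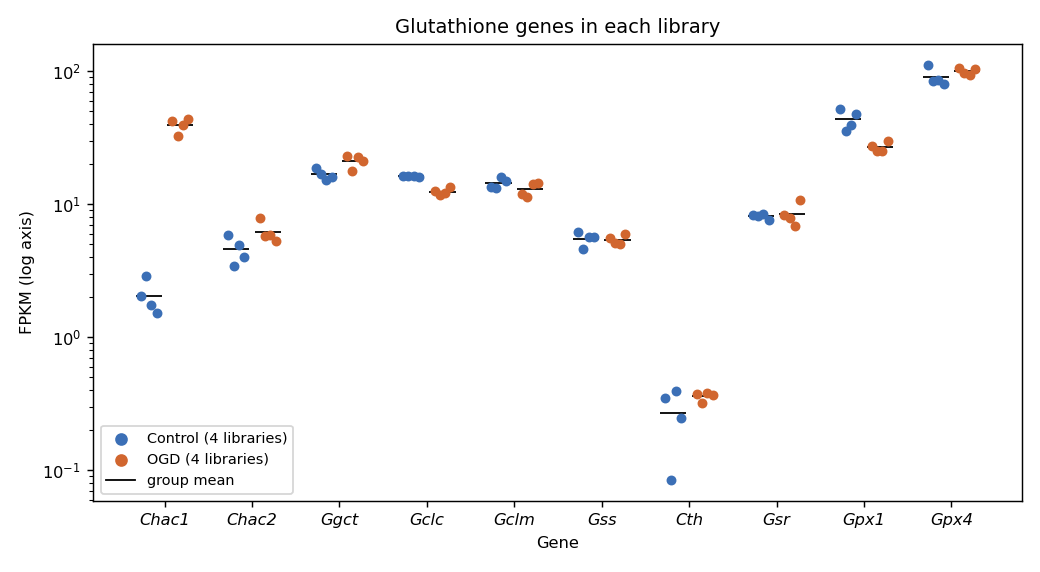
FPKM of the 10 glutathione genes (log axis) in each of 4 control (blue) and 4 OGD (orange) libraries, with group means as black lines. Chac1 moved from 1.53 to 2.86 FPKM in control to 32.5 to 44.1 FPKM in OGD, while most of the other genes kept overlapping ranges.

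The other 8 tested genes changed far less. By limma on log2(FPKM + 1), at a threshold of 0.05 on p-values adjusted over all 11149 tested genes (Benjamini-Hochberg), 1 rose (Ggct), 2 fell (Gclc and Gpx1) and 5 did not pass. Of all tested genes 49.5% passed, 22.7% rising and 26.8% falling, so 3 of 8 is no larger a share than the background. Their median difference was 0.01, against -0.04 over all tested genes. Cth was below the filter of 1 FPKM in 4 libraries and was not tested. The groups did not overlap for Chac1, Gclc and Gpx1, as for 44.7% of tested genes (20.7% with OGD above and 24.1% with OGD below). Nothing in the labels says that libraries of a group came from separate cultures, so the p-values reflect the spread of these 8 libraries alone, which may be technical.

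Beside Chac1, glutathione and its gamma-glutamyl fragments are broken down by Chac2, the constitutive paralog, and by Ggct, the gamma-glutamyl cyclotransferase that releases oxoproline. Chac2 (ENSRNOG00000001531) was at 5.90, 3.45, 4.94 and 3.99 FPKM in control and 7.84, 5.72, 5.89 and 5.25 FPKM in OGD libraries. The ranges overlapped, since control 1 lay above OGD 2, OGD 3 and OGD 4. The difference was 0.37 with a standard error of 0.15 on the log2 scale (limma, adjusted p = 0.0637). It passed in 5 of 17 alternatives (adjusted p 0.0142 to 0.172 over all 17), among them without control 1 (0.48, adjusted p = 0.0217), without OGD 4 (0.43, adjusted p = 0.0448), without both (0.54, adjusted p = 0.0142) and with rescaling outside mitochondrially encoded genes (0.41, adjusted p = 0.0478). The depth behind it was small, with 43, 26, 40 and 31 fragments in control and 53, 34, 49 and 45 in OGD as the smallest whole numbers that fit, within 0.11 of a whole.

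Ggct (ENSRNOG00000034084) was at 18.8, 17.0, 15.1 and 16.1 FPKM in control and 23.1, 17.9, 22.7 and 21.3 FPKM in OGD. OGD 1, OGD 3 and OGD 4 stood above all controls, and OGD 2 lay within the control range. It rose by 0.32 ± 0.10 (SE) on the log2 scale (limma, adjusted p = 0.0164), a call lost without control 3 (0.28, adjusted p = 0.0528). Within libraries the ratio of Chac1 to Ggct, both per length, ran from 0.0949 to 0.168 among controls and from 1.74 to 2.07 in OGD. That of Chac1 to Chac2 ran from 0.346 to 0.829 among controls and from 5.39 to 8.41 in OGD, so Chac1 was the scarcer of the paralogs in every control library and the more abundant in every OGD library.

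Of the synthesis genes, the catalytic subunit of the ligase fell and its partner did not pass. Gclc (ENSRNOG00000006302) was at 16.4, 16.4, 16.4 and 15.9 FPKM in control and 12.5, 11.7, 12.1 and 13.5 FPKM in OGD. The OGD values were all below the control values. The controls lay close together, with a coefficient of variation of 1.74% against the median of 9.71% over tested genes. The log2 difference was -0.36 ± 0.07 (SE; limma, adjusted p = 0.00144). Gclm (ENSRNOG00000013409), the modifier subunit, was at 13.5, 13.2, 16.1 and 15.0 FPKM in control and 11.9, 11.3, 14.1 and 14.4 FPKM in OGD, with overlapping ranges and a log2 difference of -0.15 ± 0.10 (SE; limma, adjusted p = 0.220). The difference between the subunits was not tested; the ratio of Gclc to Gclm lay between 1.02 and 1.25 among controls and between 0.855 and 1.05 in OGD. Gss (ENSRNOG00000018964), which completes the molecule, was at 5.51 ± 0.658 and 5.42 ± 0.425 FPKM (SD, n = 4 each), a log2 difference of -0.02 ± 0.10 (SE; limma, adjusted p = 0.901).

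Cth (ENSRNOG00000010658), the transsulfuration enzyme that releases cysteine from cystathionine, was barely detected in either group. It was at 0.348, 0.0841, 0.391 and 0.245 FPKM in control and 0.374, 0.320, 0.380 and 0.369 FPKM in OGD. These values correspond to 4, 1, 5 and 3 fragments in control and 4, 3, 5 and 5 in OGD, the smallest whole numbers that fit, each within 0.0043 of a whole. With no filter the log2 difference of Cth was 0.11 ± 0.08 (SE; limma, adjusted p = 0.357). No difference was detected, and so few fragments limit what can be read. Cbs, the preceding enzyme of the same route, was listed at 0 in 7 libraries and at 0.152 FPKM in OGD 2. Hprt1, Ndufa1 and Rps6, which nearly all cells use, were listed at 0 in all 8 libraries, so a 0 in this table may be a failed estimate.

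Of Gpx1, Gpx4 and Gsr, the members that spend and restore glutathione, Gpx1 passed the test. Gpx1 (ENSRNOG00000048812), the cytosolic glutathione peroxidase, was at 51.8, 35.4, 39.7 and 47.9 FPKM in control and 27.2, 25.3, 25.1 and 29.7 FPKM in OGD. All OGD libraries lay below all controls, and the log2 difference was -0.67 ± 0.11 (SE; limma, adjusted p = 0.000659). Microglial markers, at 204.8 to 335.8 FPKM in control and 66.7 to 122.5 FPKM in OGD, were lower in the same libraries, and their part in the fall of Gpx1 was not tested. Gpx4 (ENSRNOG00000013604), the peroxidase of membrane lipids whose loss leads to ferroptosis, was the most abundant of the 10 genes. It was at 112.0, 84.5, 85.5 and 80.6 FPKM in control and 105.7, 97.8, 94.2 and 103.2 FPKM in OGD. Control 1 alone lay above every OGD library, and the other 3 controls lay below all of them. The log2 difference of 0.15 ± 0.10 (SE) did not pass (limma, adjusted p = 0.211), but did so without control 1 (0.26, adjusted p = 0.00831; range over 17 alternatives 0.00831 to 0.450). Gsr (ENSRNOG00000014915) was at 8.33, 8.14, 8.42 and 7.58 FPKM in control and 8.24, 7.81, 6.85 and 10.8 FPKM in OGD, with a log2 difference of 0.03 ± 0.12 (SE; limma, adjusted p = 0.847).

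**Figure D2:**
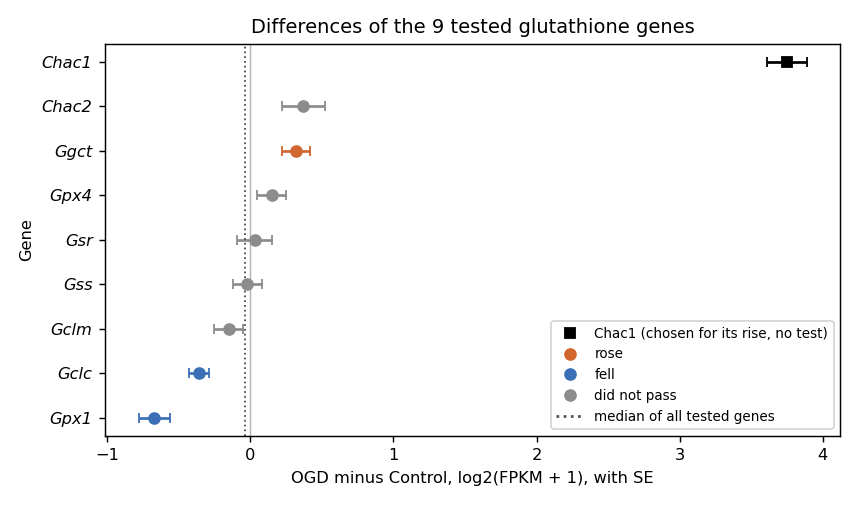
Difference between OGD and control on the log2(FPKM + 1) scale for the 9 tested genes, with limma standard errors; the dotted line is the median of all tested genes (-0.04). Chac1, shown as a square without a test, lay at 3.75 and the 8 others between -0.67 and 0.37.

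The order of the levels changed mainly by the move of Chac1. In control the order per length was Gpx4, Gpx1, Ggct, Gclc, Gclm, Gsr, Gss, Chac2, Chac1 and Cth. Neighbours whose ranges overlapped there were Ggct and Gclc, Gclc and Gclm, and Gss and Chac2. In OGD Chac1 stood in place 2, below Gpx4 and above Gpx1, with no overlap with either. Overlapping neighbours in OGD were Gclm and Gclc, Gsr and Chac2, and Chac2 and Gss. Against Gclc, the enzyme that opens synthesis, Chac1 stood at 0.0965 to 0.174 of its level in control and at 2.77 to 3.38 times its level in OGD.

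The rest of the pathway was read from 7 lists, drawn up with earlier results of these data known. They hold 155 entries, 148 with a row in the table and 113 tested: 23 rose, 30 fell and 60 did not pass, with a median log2 difference of -0.03. The shares, 20.4% rising and 26.5% falling, were near those of all tested genes (22.7% and 26.8%). In the list of cysteine supply and transsulfuration 6 of 19 rose and 4 fell (Sqrdl, Mat2a, Cdo1 and Mpst), with a median of 0.05; the shares were 31.6% and 21.1%, against 22.7% and 26.8% of all tested genes. Over genes that did not pass the filter through OGD libraries alone, 5 of 18 rose. Slc1a4, a neutral amino acid transporter that carries serine and cysteine, rose from 9.26 ± 1.35 to 52.8 ± 2.25 FPKM (SD, n = 4 each), a log2 difference of 2.40. Slc3a2, the heavy chain that cystine and other amino acid exchangers need, rose from 79.9 ± 3.41 to 174.1 ± 17.6 FPKM. Sqrdl, a mitochondrial enzyme of sulfide oxidation, fell from 3.01 ± 0.825 to 1.12 ± 0.374 FPKM.

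Slc7a11, the cystine-importing partner of Slc3a2, stayed under the filter and is named here after its values were seen. It was at 0.0823, 0.0797, 0.0742 and 0.124 FPKM in control and 0.886, 0.585, 0.879 and 1.00 FPKM in OGD, without overlap. The smallest whole numbers that fit were 5, 5, 5 and 8 fragments in control and 50, 29, 61 and 72 in OGD, within 0.080 of a whole. The ratio of means was 9.32. With no filter its log2 difference was 0.75 ± 0.08 (SE; limma, adjusted p = 0.000206), a scale on which a gene this low is compressed.

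In the list of breakdown and export 6 of 12 fell (against 26.8% of all tested genes) and 1 rose (8.33%, against 22.7%), with a median of -0.20. Cndp2, a dipeptidase that can split the cysteinylglycine released from glutathione, fell by 0.83 on the log2 scale from 21.7 ± 1.63 FPKM in control (SD, n = 4). Slc25a39, counted in this list though it is the mitochondrial glutathione carrier, fell from 54.4 ± 2.32 to 40.8 ± 3.51 FPKM. The rising gene was Abcc5, an organic anion exporter, from 5.26 ± 0.246 to 13.2 ± 2.30 FPKM. In the list of further peroxidases, glutaredoxins and peroxiredoxins 0 of 16 rose (22.7% of all tested genes) and 6 fell (37.5%, against 26.8%), with a median of -0.16. Gpx3, the secreted peroxidase, fell from 18.5 ± 2.97 to 11.7 ± 0.749 FPKM, and Prdx2, the most abundant of the list, was at 327.5 ± 39.4 and 295.9 ± 26.2 FPKM and did not pass (limma, adjusted p = 0.227).

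Of 15 glutathione transferases and glyoxalases 0 rose and 4 fell (Gstp1, Hpgds, Gstz1 and Gstm4; median -0.15), and 7 fell without OGD 4. The falling share of 26.7% was that of the background, 26.8%. Gstp1, the most abundant of them, fell from 293.5 ± 33.3 to 168.8 ± 6.12 FPKM (SD, n = 4 each). Hpgds, a transferase that makes prostaglandin D and is known from microglia, fell from 4.05 ± 0.566 to 1.19 ± 0.604 FPKM, beside the lower microglial markers (204.8 to 335.8 FPKM in control, 66.7 to 122.5 FPKM in OGD), whose part was not tested. Members of the Gstm family are close copies, so their values are uncertain. Of 16 genes of NADPH supply 4 rose and 5 fell, among them Taldo1, Idh1, Nnt and Nadk (median -0.12), shares of 25.0% and 31.2% near the 22.7% and 26.8% of all tested genes. The 4 rising genes were Mthfd2, Mthfd2l, Nadk2 and Idh2. Mthfd2, a folate enzyme, rose from 8.32 ± 0.669 to 39.9 ± 2.33 FPKM. Taldo1, transaldolase of the pentose phosphate pathway, fell from 129.2 ± 7.86 to 90.2 ± 11.8 FPKM, and Tkt, transketolase, was at 117.9 ± 3.76 and 121.4 ± 8.77 FPKM and did not pass (limma, adjusted p = 0.631).

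Of 16 genes of selenoprotein synthesis and lipid peroxide control 3 rose (Lrp8, Pstk and Dhodh) and 4 fell (Sepp1, Scly, Lpcat3 and Fth1; median -0.04), and 1 to 3 fell when single libraries were left out. The shares were 18.8% and 25.0%, near the 22.7% and 26.8% of all tested genes. Members of the lists that are neither the end genes nor the most abundant gene were named after their values were seen. Lrp8, a receptor for selenoprotein P, rose from 14.5 ± 0.631 to 22.5 ± 3.12 FPKM (SD, n = 4 each). Sepp1, selenoprotein P itself, ranged from 4.78 FPKM in control 1 to 16.4 FPKM in control 4 and was at 4.82, 5.08, 5.59 and 5.71 FPKM in OGD, with control 1 below all OGD libraries. Microglial markers were lower in the OGD libraries too (204.8 to 335.8 FPKM in control, 66.7 to 122.5 FPKM in OGD), and their part was not tested. Sepp1 fell by 0.74 on the log2 scale (limma, adjusted p = 0.0386), a call lost in 9 of 17 alternatives (adjusted p 0.00139 to 0.0982), among them without control 2, control 3, control 4, OGD 1, OGD 2 or OGD 3. Ftl1, the ferritin light chain and the most abundant of the list, was at 608.2 ± 63.5 and 613.3 ± 63.2 FPKM (limma, adjusted p = 0.927).

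**Figure D3:**
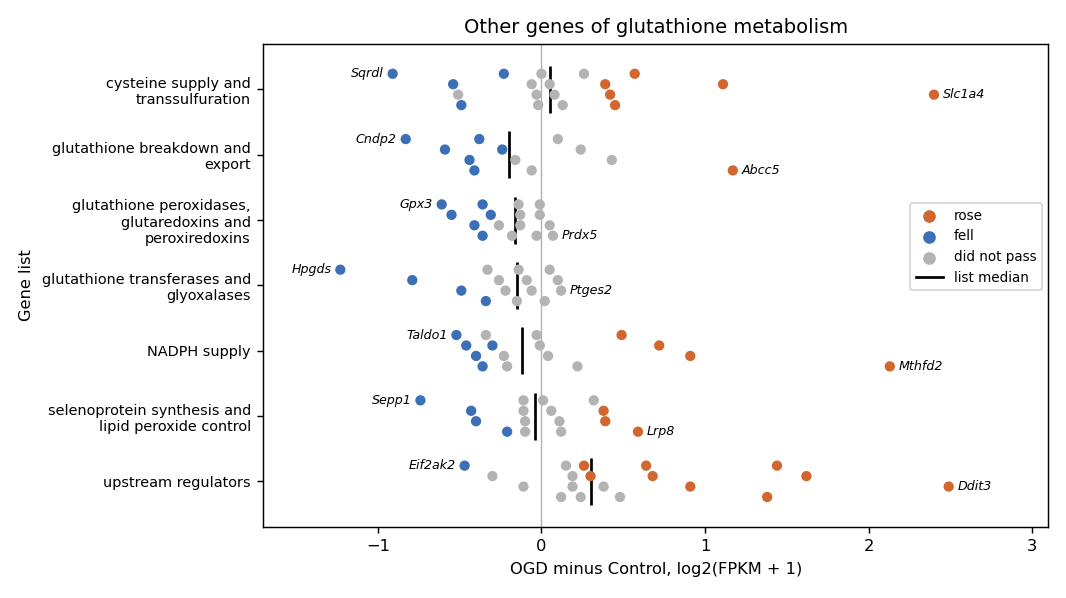
Difference between OGD and control on the log2(FPKM + 1) scale for each of 113 tested genes of 7 pathway lists, with list medians as black bars and the end genes of each list named. Rising genes are orange and falling genes blue, in shares over all lists (20.4% and 26.5%) near those of all tested genes (22.7% and 26.8%); the largest rises were Ddit3 (2.49), Slc1a4 (2.40) and Mthfd2 (2.13).

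Of 19 tested upstream regulators 9 rose (47.4%, against 22.7% of all tested genes), 1 fell (Eif2ak2, the kinase PKR, from 5.89 ± 0.691 to 3.97 ± 0.540 FPKM) and 9 did not pass, with a median log2 difference of 0.30. The list was drawn up with earlier results of these data known, so its share is a description and not a test. Trib3 and Atf3 passed the filter only through OGD libraries, so a rise was the only call open to them. Without them 7 of 17 rose, 1 fell and the median was 0.26. Those that did not pass were Cebpb, Atf5, Ppp1r15a, Eif2ak1, Eif2ak4, Nfe2l1, Nfe2l2, Bach1 and Mafk, and Nupr1 was listed at 0. Among them Ppp1r15a passed in 5 of 17 alternatives (limma, adjusted p 0.00628 to 0.136) and Cebpb in 3 of 16 (0.0172 to 0.271). Atf4, the stress factor that activates Chac1, was at 96.6, 86.6, 95.6 and 93.5 FPKM in control and 229.1, 251.1, 279.2 and 261.6 FPKM in OGD, and rose by 1.44 ± 0.07 (SE; limma, adjusted p = 1.98e-07). Ddit3, which encodes CHOP, rose from 6.00 ± 0.334 to 38.4 ± 5.17 FPKM (SD, n = 4 each), a log2 difference of 2.49. Cebpg, a dimer partner of ATF4, rose from 11.2 ± 0.557 to 18.7 ± 1.57 FPKM. Eif2ak3, the kinase PERK that raises ATF4 translation, rose by 0.30, a call lost when control 1 and OGD 4 were left out together (0.22, adjusted p = 0.0533).

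Trib3, a pseudokinase induced by ATF4, and Atf3, a stress-induced factor of the same family as ATF4, were near 0 in control. Trib3 was listed at 0.162, 0, 0.0729 and 0 FPKM in control and reached 1.66, 1.39, 1.91 and 2.13 FPKM in OGD. The smallest fitting fragment numbers were 2, 0, 1 and 0 against 19, 14, 27 and 31. Atf3 was at 0.582, 0.0804, 0.374 and 0.234 FPKM in control and 2.95, 2.34, 3.35 and 3.46 FPKM in OGD. Its fragments numbered 7, 1, 5 and 3 against 33, 23, 46 and 49. Within the OGD group Chac1, Trib3, Atf3, Slc7a11, Slc3a2 and Mthfd2 were each lowest in OGD 2 and highest in OGD 4, genes singled out after their values were seen. Ddit3 was lowest in OGD 1 and highest in OGD 4, Atf4 lowest in OGD 1 and highest in OGD 3, and Slc1a4 lowest in OGD 2 and highest in OGD 1. OGD 2 and OGD 4 were also the libraries of lowest and highest relative depth (0.816 and 1.18), and the part of depth in this order was not tested.

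In the NRF2 antioxidant response the inhibitor Keap1 and the partner Mafg rose, and Nfe2l2, Nfe2l1, Bach1 and Mafk did not pass. Nfe2l2, which encodes NRF2, was at 3.14 ± 0.498 and 2.37 ± 0.466 FPKM (SD, n = 4 each) and did not pass (limma, adjusted p = 0.0865), but did so without OGD 4 (-0.38, adjusted p = 0.0379; range over 16 alternatives 0.0379 to 0.230). Keap1, which marks NRF2 for degradation, rose from 9.78 ± 0.523 to 11.9 ± 0.626 FPKM, and Mafg, a small Maf partner, from a mean of 10.6 to 17.0 ± 2.49 FPKM.

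The 5 genes whose pattern was most like that of Chac1, by the root mean square difference of log2(FPKM + 1) over 8 libraries after subtraction of the control mean, were Ciart (0.35), Bhlhe40 (0.37), Ankrd37 (0.38), Ak4 (0.51) and Adm (0.55). Ciart and Bhlhe40 are repressors of the circadian clock, and Adm encodes the peptide adrenomedullin. Ciart was at 1.81 ± 0.494 and 29.8 ± 3.16 FPKM and Bhlhe40 at 1.85 ± 0.291 and 42.2 ± 7.26 FPKM (SD, n = 4 each). Ankrd37 was at 0.469 ± 0.314 and 20.3 ± 0.894 FPKM and Ak4 at 0.345 ± 0.446 and 18.1 ± 3.25 FPKM. Ankrd37 and Ak4 were under 1 FPKM in every control and passed the filter only through OGD libraries. A rise was the only call open to them. The measure weighs the size of the rise most, since all 6 genes differ between the groups far more than within them. Within the OGD group none of the 5 was lowest in OGD 2 and highest in OGD 4 as Chac1 was; Ak4 and Adm were highest in OGD 2.

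**Figure D4:**
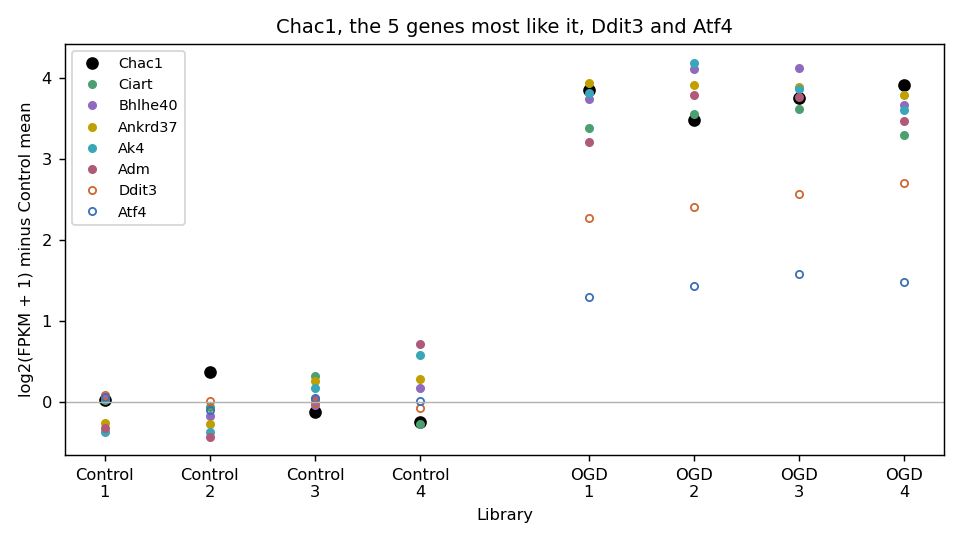
log2(FPKM + 1) minus the control mean in each library for Chac1 (black), the 5 genes most like it (filled) and Ddit3 and Atf4 (open). In OGD 2 Chac1 was at its lowest OGD level and Ak4 and Adm at their highest, and Ddit3 and Atf4 rose less than Chac1.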

How the data were processed

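Strand-specific libraries were made from RNeasy-purified RNA of 4 control and 4 OGD samples, per the labels' protocols. The authors deposited FPKM values, per the file headers. Trimmomatic, FastQC and build rn6 (Rnor_6.0) are named in the submitters' processing notes; which aligner and FPKM program were run, and with what strand setting, is not given in the sources used here. The members and lists were chosen with earlier results of these data known. The 11149 genes that reached 1 FPKM in 4 or more samples were tested in limma 3.58.1 (R 4.3.3, trended, group only) on log2(FPKM + 1), which understates fold changes of low genes. The procedure was tested on simulated data. Of 226 list entries 10 had no row by symbol. Relative depth came from genes of at most 0.5 FPKM, 75.7% to 79.0% of whose ratios to control 1 were whole within 0.01 (log2). Named were the 10 genes, the largest rise, largest fall and most abundant gene of each list, tested regulators and the 5 genes most like Chac1. Alternatives were 3 scalings, no filter or 5 FPKM, a pseudocount of 0.1, no trend, a replicate block, leaving out each library, and control 1 with OGD 4 left out. A planned comparison of Chac1 and Chac2 proteins was not run. Tables and figures were made in Python 3.11.15 with numpy 2.4.6, pandas 2.3.3 and matplotlib 3.10.9.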

Additional observations from a re-analysis of the deposited data

Results flagged for a closer look

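In 2 of 100 groups of 4 libraries, looked at for each named gene on the log2(FPKM + 1) scale, the highest or lowest library was set well apart; chance alone flags about 5 of 100. Gclc in control 4 was at 15.9 FPKM against 16.4 in the other 3 controls, a gap of 0.893 of the range. Mafg in control 1 was at 8.48 FPKM, with the next control at 11.1, a gap of 0.897 of the range.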

How the results depend on the processing

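Chac1 stayed between 3.67 and 4.24 on the log2 scale over 17 alternatives, with 4.24 at a pseudocount of 0.1 and 3.67 to 3.87 when single libraries were left out. Of 787 values of 48 other named genes under the alternatives, 759 kept their side of the threshold, 11 lost the call and 17 gained it. The largest rise and fall of each list were named among genes past the threshold, and the 5 genes most like Chac1 by their pattern. The share of kept calls was thus partly set by that choice. The calls that reversed direction numbered 0. Differences that did not pass could change sign, as for Gss (-0.09 to 0.03) and Gsr (-0.08 to 0.11). Rising members other than Chac1 numbered 1, and 3 without control 1 and OGD 4 together, 2 with rescaling outside mitochondrial genes, 2 with quantile normalization, 2 with the replicate block (Chac2 then passing, adjusted p = 0.0176 by limma) and 0 to 3 when single libraries were left out. The rising count in breakdown and export was 1, and 2 with no filter, 2 with quantile normalization and 1 to 2 with single libraries left out. Falling transferases numbered 4, and 2 with a filter of 5 FPKM, which tests 12 genes in place of 15, and 4 to 7 with single libraries left out. Falling selenoprotein and lipid peroxide genes numbered 4, and 2 without control 1 and OGD 4, 1 with rescaling, 2 without trend, 1 with no filter and 1 to 3 with single libraries left out. Falling regulators numbered 1 to 2 with single libraries left out. The causes were not tested. Deviations of same-numbered libraries correlated at -0.222, 0.163, 0.0105 and 0.0902. Over all pairs of a control and an OGD library the range was -0.328 to 0.221, highest for control 1 with OGD 4. Correlations this weak cannot decide whether the numbers pair the libraries. With the replicate block 2497 genes rose and 3012 fell, against 2527 and 2992. Few fragments limit what can be read of Cth, Chac2 and Chac1 in control.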
